A study of Oryza sativa with 60 samples.

Results

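The change in polyadenylated RNA between rice anthers of 0.4 mm, the shortest sampled, and of 0.6 mm, the next length, was measured with 6 libraries, 3 of 0.6 mm and 3 of 0.4 mm, out of 60 in the series. All plants were wild-type Kitaake, a japonica rice cultivar used for transformation, kept in a greenhouse with 16 hours of light at 30°C and 8 hours of dark at 25°C. Each sample was RNA of 20 to 30 whole anthers, and the series' design text names 3 biological replicates per length. Both lengths share genotype, tissue and growth conditions, and differ in length only, as far as the labels say. The 24 mRNA libraries of the 8 lengths between 0.8 and 2.5 mm were used to estimate the spread of each gene and to follow the called genes onward. The 30 small RNA libraries were not analysed here.

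An anther is the male organ of the flower. Its wall layers, of which the innermost, the tapetum, feeds the developing pollen, enclose the cells that enter meiosis. In rice and other grasses the young anther also makes phased small RNAs, called phasiRNAs, which are cut from long noncoding transcripts of loci that lie in clusters along the chromosomes. The shorter class of these small RNAs is triggered by miR2118 and the longer class by miR2275, and in grass anthers the shorter class is known to come first.

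Abundance is given as FPKM, fragments scaled to transcript length and to the mapped fragments of the library, so that levels of different genes can be set side by side. It was summed over the transcript entries of each gene ID. A gene was called at an adjusted p under 0.05 (limma, Benjamini-Hochberg over all genes tested) with a log2 fold change of at least 1 in size, on the log2(FPKM + 1) scale, which understates the change of low genes. The 35594 gene IDs come with no names, and 0 of them occur in the reference gene table. The 132 entries of 11 lists of anther and phasiRNA pathway genes and cell type markers therefore matched 0 genes, and the tissue label could not be checked against markers. Genes are described below by level, course over anther length and place in the ID order, and 8 are given by ID with no function stated.

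Of the 6 libraries, 0.4 mm replicate 3 and, in another way, 0.4 mm replicate 1 stood apart. The library labelled 0.4 mm replicate 3 had a mean correlation of 0.958 with the 0.6 mm libraries and 0.955 with the other libraries of its own length. Over the 1435 genes called without it, its profile lay 50.1% of the way to the 0.6 mm mean, and for the other 5 libraries, each placed in the same way, this share was between -5.72% and 9.95%. It had moved 59.9% of the way for genes higher at 0.6 mm and 16.0% for genes lower at 0.6 mm. The library labelled 0.4 mm replicate 1 deviated the other way for the genes higher at 0.6 mm, at -44.3%, and towards the 0.6 mm level for the lower ones, at 34.1%. Its share of 9.95% combines these opposite deviations. Its mean correlation with the other libraries of its own length was 0.952, the lowest at 0.4 mm, and it was 0.917 with the 0.6 mm libraries. Counts without these libraries are given beside some of the results that rest on the calls, and not beside all of them. Pairs of 0.6 mm libraries correlated at 0.973 to 0.982, and pairs of 0.4 mm libraries at 0.943 to 0.966.

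At 0.6 mm, 1265 of 26091 tested genes (4.85%) differed from 0.4 mm, 707 higher (2.71%) and 558 lower (2.14%). The median log2 fold change was 1.70 among genes called higher and -1.47 among genes called lower, against -0.06 over all genes tested. On this scale falls to low levels are compressed, and the sets' median levels, given below, differed by similar ratios. A change of at least 3 on the log2 scale was found for 64 higher and 6 lower genes. Of the called genes, 647 higher and 535 lower ones had no overlap between the 3 libraries of 0.6 mm and the 3 of 0.4 mm, which held for 2679 higher (10.3%) and 3931 lower (15.1%) of all genes tested. The direction of none of the 1265 changed under any alternative that could test them, which was largely fixed in advance. Several alternatives, such as other filters and the fit on the compared sizes alone, leave the fold change as it is. For genes with no overlap, leaving out a library cannot turn its sign. The counts depended on how the spread was estimated and on single libraries. A fit on the compared sizes alone called 122 higher and 254 lower genes, and with a filter on those sizes it called 344 higher and 406 lower. Leaving out 0.4 mm replicate 3 gave 946 higher and 489 lower genes, leaving out replicate 1 of that length 363 and 519, and leaving out its replicate 2 464 and 368.

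**Figure D1:**
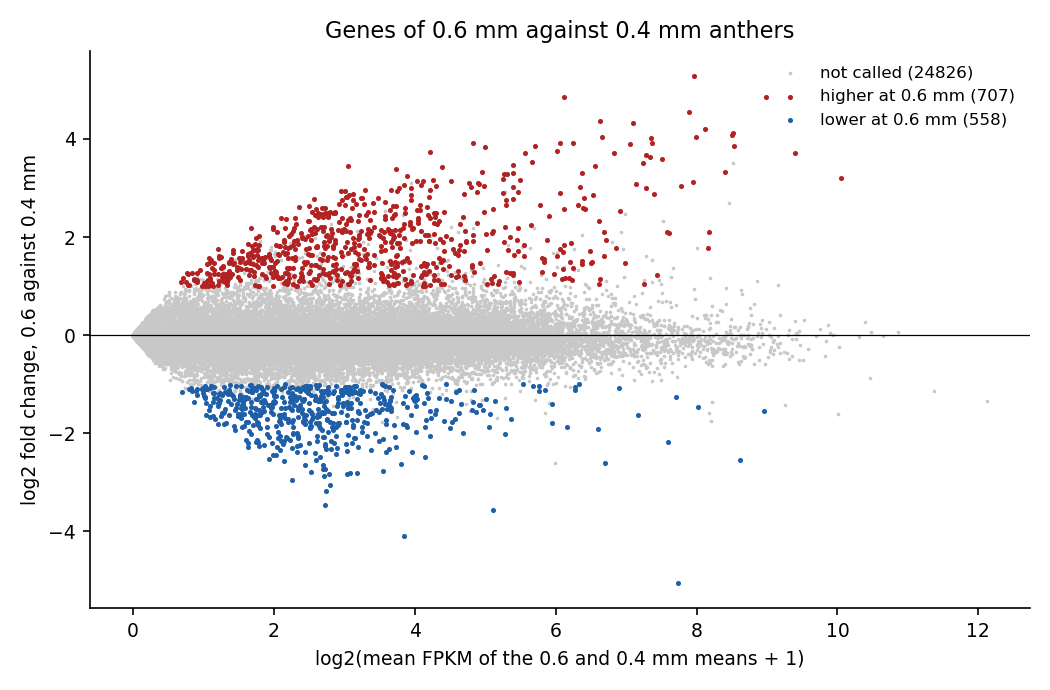
Each point is 1 of 26091 tested genes. The horizontal axis is the log2 of the mean FPKM of both lengths plus 1, and the vertical axis is the log2 fold change of 0.6 against 0.4 mm on the log2(FPKM + 1) scale. The 707 genes called higher spread further from 0 on this scale than the 558 called lower, and 12 of them lie above 4.

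Among abundant transcripts the rises outnumbered the falls. Of 812 tested genes that averaged 100 FPKM or more over the 6 libraries, 37 were higher and 9 lower, 4.56% and 1.11%. In the range of 1 to 5 FPKM, 223 were higher and 285 lower of 6584 tested, 3.39% and 4.33%. The genes called higher held 5.32%, 6.09% and 6.36% of all FPKM in the 0.6 mm libraries, and 0.500%, 1.15% and 2.52% in the 0.4 mm libraries. The highest of the 0.4 mm shares belongs to replicate 3. The genes called lower held 0.552%, 0.518% and 0.551% at 0.6 mm, and 1.78%, 2.15% and 1.73% at 0.4 mm. Neither set overlapped between the lengths in this share, which follows from how the genes were called. Because the tissue is bulk, more RNA per cell and more cells of a type cannot be told apart.

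The largest rise among called genes with at least 10 FPKM in the higher length and no overlap was OsKitaake01g083800.v3.1. It had 151, 238 and 1077 FPKM at 0.6 mm, against 7.24, 3.06 and 18.9 FPKM at 0.4 mm. The lowest 0.6 mm library lay far above the highest 0.4 mm library, and the 0.6 mm libraries differed widely among themselves. The log2 fold change was 5.28 ± 0.74 (SE, adjusted p = 1.39e-05, limma). This rise went on at the next lengths, to a mean of 3934 FPKM at 0.8 mm and 5233 FPKM at 1.0 mm, before it fell to 392 FPKM at 1.2 mm and 73.8 FPKM at 1.4 mm. All 16 alternatives that gave a value for this gene kept the call, with log2 fold changes of 4.45 to 5.87. The largest adjusted p was 0.0373 (limma), in the fit on the compared sizes alone.

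The second largest rise, OsKitaake04g309600.v3.1, followed much the same course. It had 360.4, 1082 and 1422 FPKM at 0.6 mm, against 13.3, 9.37 and 153 FPKM at 0.4 mm, with 0.4 mm replicate 3 the highest of its length. Means of 4979 FPKM at 0.8 mm, 8317 FPKM at 1.0 mm and 17.1 FPKM at 1.4 mm followed. The log2 fold change was 4.86 ± 1.16 (SE, adjusted p = 0.00823, limma). This call was lost in 4 of 16 alternatives, with an adjusted p of 0.0669 in the fit on the compared sizes alone. Leaving out 0.4 mm replicate 1 gave 0.062, leaving out 0.4 mm replicate 2 gave 0.0788, and leaving out 0.6 mm replicate 3 gave 0.0515.

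The next 10 rises by the same rule had log2 fold changes of 4.02 to 4.85 and means of 135 to 627 FPKM at 0.6 mm, against 1.60 to 132 FPKM at 0.4 mm. Of these 10, 4 went on to a higher mean at 0.8 mm, and the others were at their highest at 0.6 mm.

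Both genes with a fall of at least 4 on the log2 scale rose again later in anther development, but only the second below regained its 0.4 mm mean. OsKitaake03g193100.v3.1 had 12.3, 5.82 and 20.2 FPKM at 0.6 mm, against 369, 373 and 491 FPKM at 0.4 mm, a log2 fold change of -5.04 ± 0.53 (SE, adjusted p = 1.56e-07, limma). It averaged 2.28 FPKM at 1.0 mm, 54.9 FPKM at 1.4 mm and 0.725 FPKM at 2.5 mm. OsKitaake11g118600.v3.1 had 0.646, 0.202 and 0.861 FPKM at 0.6 mm, against 18.9, 23.0 and 36.7 FPKM at 0.4 mm, a log2 fold change of -4.08 ± 0.48 (SE, adjusted p = 8.37e-07, limma). It stayed below 1 FPKM on average up to 1.0 mm, then averaged 14.4 FPKM at 1.4 mm and 32.7 FPKM at 2.0 mm. The libraries of 0.6 and 0.4 mm did not overlap in either gene, and both calls held in all 16 alternatives. The largest adjusted p of each was 0.0189 (limma), in the fit on the compared sizes alone. Of the 558 genes called lower, 49 (8.78%), the second of these among them, had a higher mean at another length than at 0.4 mm. Over all genes tested, 67.1% had a mean at a later length at or above the higher of their 0.4 and 0.6 mm means. Calling genes lower favours a high 0.4 mm mean and so holds the 8.78% down.

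**Figure D2:**
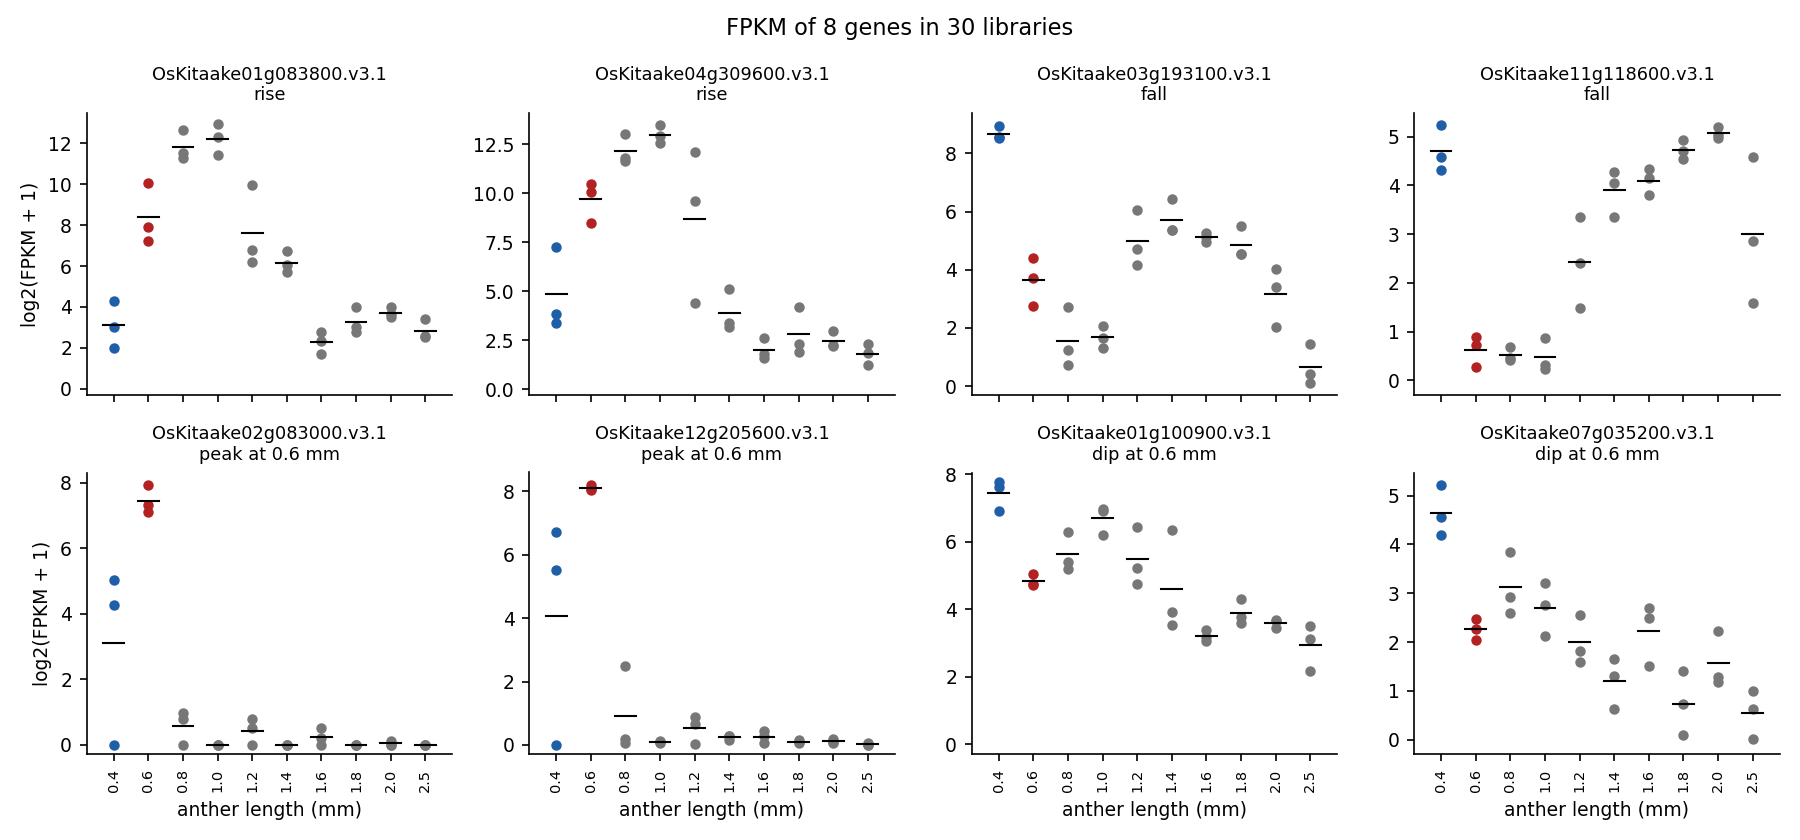
FPKM on a log2(FPKM + 1) scale in each of 30 libraries for 8 genes, by anther length. Points are libraries, red at 0.6 mm, blue at 0.4 mm and grey elsewhere, and bars are means of the log2 values. The upper row shows the 2 largest rises, which are highest at 1.0 mm, and the 2 largest falls, which rise again later. The lower row shows 2 genes with a peak and 2 with a dip at 0.6 mm.

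Most genes called lower were near 0 at the next lengths, and a smaller share stayed there to the end. Their median level was 7.38 FPKM at 0.4 mm, 1.64 FPKM at 0.6 mm, 0.042 FPKM at 0.8 mm and 0 FPKM at 1.0 mm, and it stayed at or below 0.070 FPKM up to 2.5 mm. By library the median was 1.52, 1.65 and 1.55 FPKM at 0.6 mm, against 5.44, 9.26 and 7.07 FPKM at 0.4 mm. The 3 libraries of 0.6 mm lay close together, and that all were below those of 0.4 mm follows from how the genes were called. At both 0.8 and 1.0 mm, 311 of the 558 genes (55.7%) had means below 0.1 FPKM. At all 8 later lengths 233 (41.8%) did. Over all genes tested, 7.29% were below 0.1 FPKM at 0.8 and 1.0 mm and 1.30% at all 8 later lengths. A gene of the latter kind can pass the filter on low values only through its 0.4 and 0.6 mm libraries. The filter thus holds the 1.30% down, and the 233 genes are part of the 338 behind it. The share below 0.1 FPKM at 0.8 and 1.0 mm was 54.7% of the 254 lower genes in the fit on the compared sizes alone. In that fit those lengths enter only through the filter on low values. With the filter on the compared sizes too, the share was 51.5% of 406 genes. It was 47.0% of 489 without 0.4 mm replicate 3. Without 0.4 mm replicate 1 it was 52.6% of 519. Without 0.4 mm replicate 2 it was 185 of 368 genes (50.3%), and 130 (35.3%) were below 0.1 FPKM at all 8 later lengths.

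Seen from the other side, 20848 tested genes averaged 1 FPKM or more at 0.4 mm, and 476 of these (2.28%) were below 0.1 FPKM at both 0.8 and 1.0 mm. Of the 476 genes that were on at 0.4 mm and off by 0.8 mm, 311 (65.3%) were called lower at 0.6 mm, 20 (4.20%) were called higher, and 442 (92.9%) had a lower mean log2 level at 0.6 mm. The median of the 476 genes was 1.51, 1.71 and 1.52 FPKM in the 0.6 mm libraries, against 3.89, 7.36 and 5.51 FPKM in the 0.4 mm libraries, and 0 FPKM in each of the 0.8 mm libraries. The 0.6 mm median lay between those of 0.4 and 0.8 mm. The choice of these genes by a high level at 0.4 mm and a low one at 0.8 and 1.0 mm favours such an order, so these values are a description. Together these genes held 0.272%, 0.260% and 0.266% of FPKM at 0.6 mm, and 0.442%, 0.836% and 0.636% at 0.4 mm. Of the 476 genes, 95.4% had a single transcript entry, against 76.0% of all genes tested. A total of 75 tested genes were at least 2 log2 units higher at 0.4 mm than at every other length.

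By median, the genes called higher stayed up for longer and then faded. Together they held 8.75%, 7.13% and 14.0% of FPKM in the 0.8 mm libraries, against 5.32%, 6.09% and 6.36% at 0.6 mm. Their median level was 3.23 FPKM at 0.4 mm, 13.3 FPKM at 0.6 mm, 10.4 FPKM at 0.8 mm, 6.68 FPKM at 1.0 mm, 3.27 FPKM at 1.2 mm and 0.591 FPKM at 2.5 mm. Over the same lengths the median of all genes tested moved between 3.60 and 6.42 FPKM. By library the median of the genes called higher was 12.4, 13.1 and 13.6 FPKM at 0.6 mm, against 0.950, 2.33 and 5.44 FPKM at 0.4 mm. The spread among the 0.4 mm libraries was wide, with replicate 3 the highest. That the lengths did not overlap follows from the calls. For 306 of the 707 genes (43.3%) the mean at 0.6 mm was the highest of all 10 lengths, a share that the calls favour, since they leave out 0.4 mm as the top. Leaving 0.4 and 0.6 mm aside, the highest of the other 8 lengths was 0.8 mm for 44.4% of the genes called higher, against 22.5% of all genes tested.

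**Figure D3:**
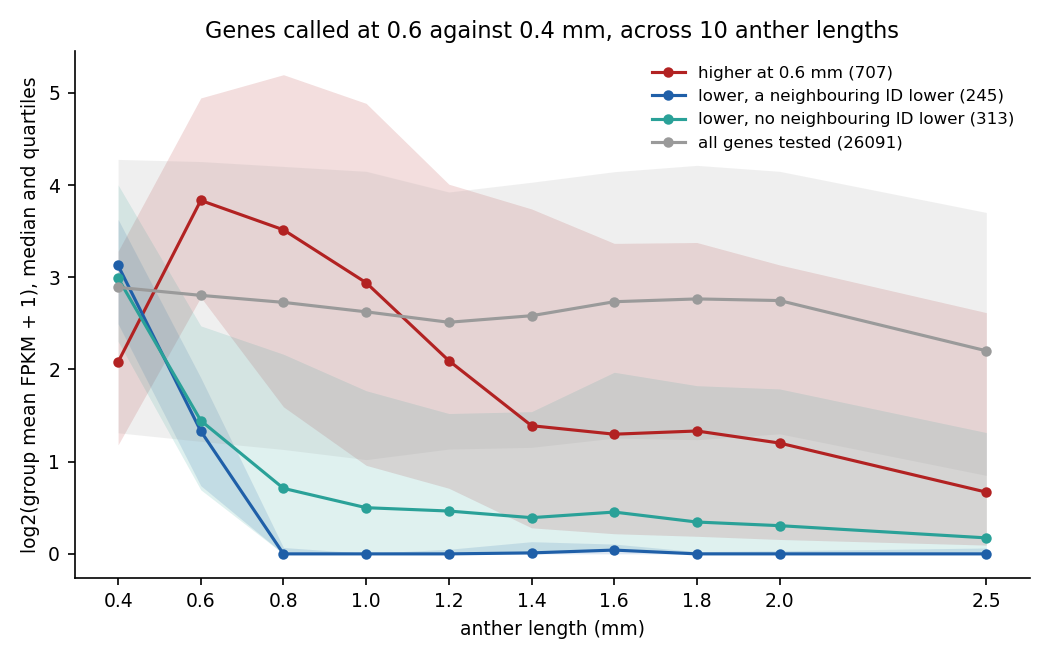
Median (points) and quartiles (shaded) of log2(group mean FPKM + 1) by anther length, for the 707 genes called higher at 0.6 mm, the 245 called lower that have a called-lower neighbour in the ID order, the 313 called lower without one, and all 26091 genes tested. The genes called higher have their top median at 0.6 mm, and the lower genes with a lower neighbour have medians of at most 0.029 FPKM from 0.8 mm on.

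How these genes went on could be tested between 1.0 and 0.8 mm, a comparison that shares no library with that of 0.6 and 0.4 mm but shares the estimate of spread. Of the 707 genes called higher at 0.6 mm, 48 (6.79%) were called lower at 1.0 than at 0.8 mm and 4 (0.566%) higher. Over all genes tested, 539 were called (2.07%), and 152 were lower (0.583%) and 387 higher (1.48%), although by sign alone 15848 had a negative and 9573 a positive fold change. Of the 558 genes called lower at 0.6 mm, 4 were lower and 3 higher at 1.0 mm. These counts do not show that the set was steady. For 311 of the 558 both means were below 0.1 FPKM, where a change of 1 on the log2(FPKM + 1) scale cannot occur. The count of 48 was set by few libraries, since it was 104 without 0.8 mm replicate 3, where 512 of all genes tested were lower (1.96%) and 464 higher, and 12 to 17 when replicate 1 or 2 of 0.8 mm or of 1.0 mm was left out, where 0.196% to 0.326% were. The fit on the 1.0 and 0.8 mm libraries alone called 2 of the 707 lower, with 8 lower genes in all, and with the filter on those sizes 12, with 30 in all.

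Genes called lower often stood next to each other in the ID order. The gene IDs were read as holding a chromosome number and a running number along it, which the files do not document, and 26054 tested IDs could be put in order in this way. The results on neighbours and chromosomes rest on this reading. Of the 558 genes called lower, 245 (43.9%) had a called-lower gene as the next or previous tested ID, while 3.80% of all tested IDs had such a neighbour. They formed 33 runs of at least 3 consecutive tested IDs, holding 143 genes, and the 2 longest runs, 1 on chromosome 7 and 1 on chromosome 11, held 8 genes each. In the run on chromosome 11 the median level was 1.26 FPKM at 0.6 mm, against 6.12 FPKM at 0.4 mm, and it was 0 FPKM at 0.8 mm. In the run on chromosome 7 it was 0.741 FPKM at 0.6 mm, against 5.93 FPKM at 0.4 mm, and 0 FPKM at 0.8 mm. Among genes called higher, 143 of 706 placed IDs (20.3%) had a called-higher neighbour, against 5.19% of all tested IDs, and they formed 17 runs of at least 3. The longest, on chromosome 1, held 6 genes with a median of 7.33 FPKM at 0.6 mm, against 1.32 FPKM at 0.4 mm, and 13.8 FPKM at 0.8 mm. A neighbour called in the opposite direction was found for 14 genes in each direction, 2.51% of the lower and 1.98% of the higher genes.

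The share of lower genes with a lower neighbour was 29.5% in the fit on the compared sizes alone and 37.2% without 0.4 mm replicate 3, and it was 46.4% without replicate 1 of that length and 133 of 368 genes (36.1%) without replicate 2. For higher genes the fit on the compared sizes alone gave 2 of 121 (1.65%), and with the filter on those sizes 17.5%. Neighbouring IDs can be copies of similar sequence, between which the authors' counting may have split reads, or pieces of 1 transcript annotated as several genes. The part of either in these shares was not tested.

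Lower genes in such neighbourhoods and those outside them began alike and ended apart. The 245 with a lower neighbour had a median of 7.74 FPKM at 0.4 mm, 1.52 FPKM at 0.6 mm and 0 FPKM at 0.8 mm. The other 313 had a median of 6.95 FPKM at 0.4 mm, 1.72 FPKM at 0.6 mm and 0.637 FPKM at 0.8 mm. At 0.8 mm, 81.2% of the genes with a lower neighbour were below 0.1 FPKM, against 38.0% of the genes without one. This split rests on the calls of the fit on all 30 libraries, whose spread also comes from the later lengths. It was not repeated under the alternatives. Of the 476 genes on at 0.4 mm and off by 0.8 mm, 321 had another of them as the next or previous ID, 67.7% of those placed, against 2.92% of all tested IDs.

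Chromosomes 11 and 12 held more of the falls than their share of genes. On chromosome 11, 86 of 1545 tested genes were lower (5.57%) and on chromosome 12 79 of 1574 (5.02%), while the other 10 chromosomes ranged from 0.856% on chromosome 1 to 2.86% on chromosome 7. Both together held 29.6% of the genes called lower, 13.6% of those called higher and 12.0% of the genes tested. In the fit on the compared sizes alone they held 32.7% of the lower genes, and they held 31.2% without 0.4 mm replicate 1 and 28.6% without replicate 3 of that length. Among lower genes with a lower neighbour the share on these chromosomes was 41.6%, and among those without one 20.1%. It was 34.7% of the 476 genes on at 0.4 mm and off by 0.8 mm. Rice chromosomes 11 and 12 share a duplicated segment, so near-identical copies may have divided reads there, and the part of this was not tested.

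**Figure D4:**
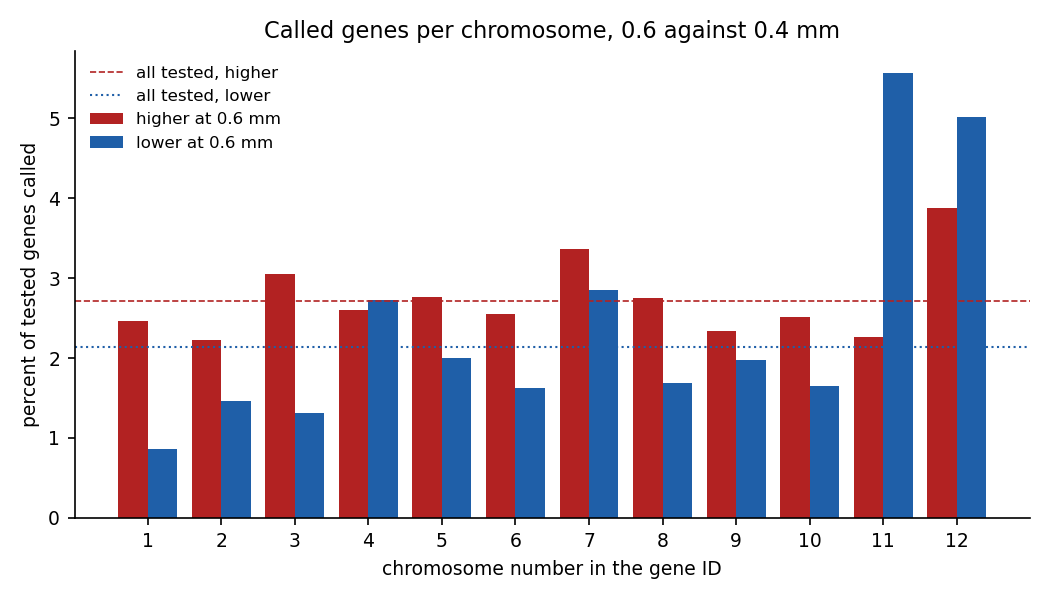
Percent of the tested genes of each chromosome, as numbered in the gene ID, that were called higher (red) or lower (blue) at 0.6 mm. Lines mark the shares over all tested genes, 2.71% higher (dashed) and 2.14% lower (dotted); the lower shares of chromosomes 11 and 12, 5.57% and 5.02%, exceed those of the other 10.

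Whether 0.6 mm is a turning point was tested as the change between 0.6 and 0.8 mm minus that between 0.4 and 0.6 mm, called the bend here. A gene with a peak at 0.6 mm has a negative bend and a gene with a dip a positive one. The bend was called for 811 genes (3.11%), negative for 664 (2.54%) and positive for 147 (0.563%). It uses the libraries of 0.4 and 0.6 mm again and is no independent support for the calls above. By the order of their means, 553 of these genes had a peak at 0.6 mm, 60 had a dip, 197 fell over the 3 lengths and 1 rose over them. Among all genes tested, 23.4% had a peak, 28.4% a dip, 31.1% fell and 17.1% rose by the same order. Without 0.4 mm replicate 3 there were 691 peaks, 59 dips and 37 genes that rose. Leaving out 0.4 mm replicate 1 gave 450 peaks and 51 dips. Leaving out replicate 1 of 0.6 mm gave 306 peaks and 36 dips, replicate 2 gave 481 and 32, and replicate 3 gave 344 and 33. In a fit on the 3 lengths alone there were 148 peaks and 13 dips.

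Genes with a peak had a median of 3.38 FPKM at 0.4 mm, 10.2 FPKM at 0.6 mm, 1.49 FPKM at 0.8 mm and 0.930 FPKM at 1.0 mm. For 438 of the 553 (79.2%) the mean at 0.6 mm was the highest of all 10 lengths, against 10.1% of all genes tested, a share that choosing peaks favours. For 378 the 3 libraries of 0.6 mm lay above all those of 0.4 and 0.8 mm. Choosing peaks favours this too, and it was not counted over all genes tested, so the 378 are a description only. Of the 553, 48 stood at least 2 log2 units above every other length. By library the median of the peak genes was 1.08, 3.36 and 5.05 FPKM at 0.4 mm, 11.6, 7.83 and 9.95 FPKM at 0.6 mm, and 1.73, 1.61 and 0.965 FPKM at 0.8 mm. A neighbouring ID with a peak was found for 82 of them (14.8%), against 4.15% of all tested IDs.

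The largest peak by the rule was that of OsKitaake02g083000.v3.1. It had 0, 18.0 and 31.4 FPKM at 0.4 mm, 160.3, 136 and 241 FPKM at 0.6 mm, and 0.710, 0.959 and 0 FPKM at 0.8 mm. From 1.0 mm on its mean was at most 0.380 FPKM. The bend was -11.23 ± 1.15 (SE, log2 scale, adjusted p = 3.45e-07, limma). OsKitaake12g205600.v3.1 had 0, 45.0 and 105 FPKM at 0.4 mm, 270.2, 263 and 290.2 FPKM at 0.6 mm, and 4.58, 0.134 and 0.036 FPKM at 0.8 mm, with a bend of -11.22 ± 1.56 (SE, log2 scale, adjusted p = 2.78e-05, limma). Both genes were listed at 0 in 0.4 mm replicate 1 and highest among the 0.4 mm libraries in replicate 3. The call of the second was lost in the fit on the 3 lengths alone (adjusted p = 0.0968) and with the filter on those lengths (adjusted p = 0.0533).

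**Figure D5:**
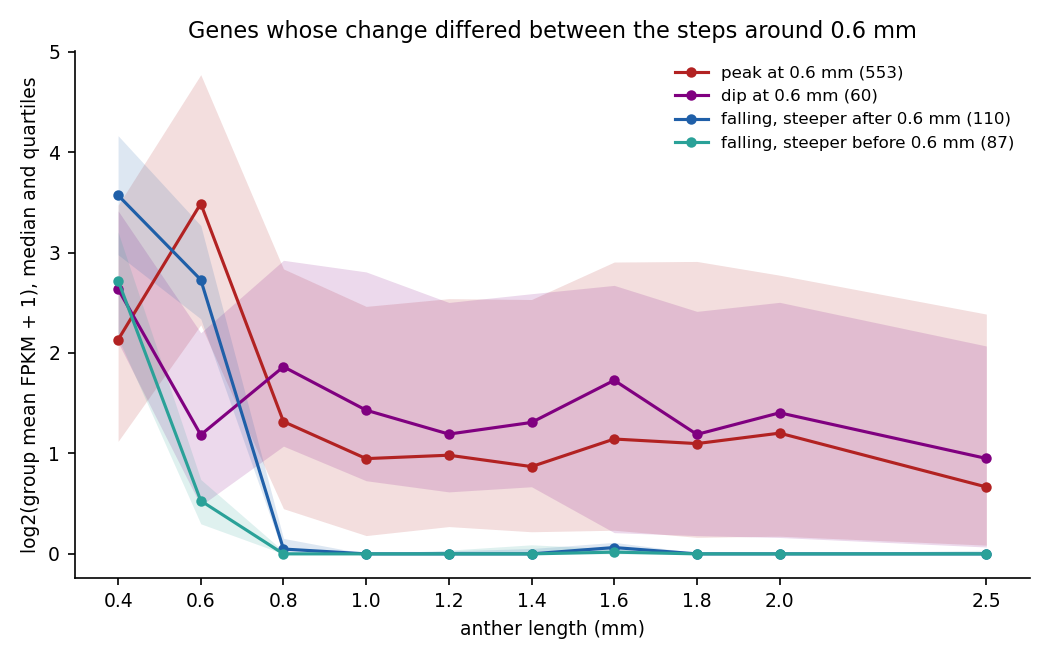
Median (points) and quartiles (shaded) of log2(group mean FPKM + 1) by anther length for 4 shapes among the 811 genes with a called bend: 553 with a peak at 0.6 mm, 60 with a dip, 110 that fell more steeply on this scale after 0.6 mm and 87 that fell more steeply before it. Both falling sets are near 0 from 0.8 mm on.

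The genes that fell over the 3 lengths were split by the sign of the bend, which sets whether the fall on the log2(FPKM + 1) scale was larger after or before 0.6 mm. In 110 with a negative bend the median was 10.9 FPKM at 0.4 mm, 5.63 FPKM at 0.6 mm and 0.034 FPKM at 0.8 mm. In 87 with a positive bend it was 5.59 FPKM at 0.4 mm, 0.443 FPKM at 0.6 mm and 0 FPKM at 0.8 mm. By library, the 110 genes had medians of 5.44, 6.90 and 5.11 FPKM at 0.6 mm, against 7.05, 13.8 and 12.5 FPKM at 0.4 mm, and the 87 genes had 0.375, 0.394 and 0.489 FPKM at 0.6 mm, against 3.93, 6.29 and 4.78 FPKM at 0.4 mm. The 87 depended on the 0.4 mm libraries, with 45 without replicate 1, 26 without replicate 2 and 41 without replicate 3, and on the pseudocount, with 24 at 0.1. The 110 moved between 98 and 127 when 1 library was left out and were 212 with a pseudocount of 0.1. In the fit on the 3 lengths alone the sets held 10 and 14 genes.

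The 2 largest dips were shallower than the peaks. OsKitaake01g100900.v3.1 had 217, 196 and 119 FPKM at 0.4 mm, 25.1, 31.9 and 25.9 FPKM at 0.6 mm, and 41.2, 35.6 and 76.7 FPKM at 0.8 mm, with a bend of 3.40 ± 0.86 (SE, log2 scale, adjusted p = 0.0218, limma). OsKitaake07g035200.v3.1 had 17.2, 36.1 and 22.5 FPKM at 0.4 mm, 3.82, 3.14 and 4.53 FPKM at 0.6 mm, and 5.03, 6.58 and 13.4 FPKM at 0.8 mm, with a bend of 3.25 ± 0.73 (SE, log2 scale, adjusted p = 0.00729, limma). In both genes the 0.6 mm libraries lay below all others of the 3 lengths. These calls were lost in 5 and 3 of 19 alternatives, with adjusted p of up to 0.133 for the first gene, without 0.6 mm replicate 1, and 0.189 for the second, with a pseudocount of 0.1.

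In the 2 library-wide measures, at the limits chosen for them, the libraries of 0.6 and 0.4 mm overlapped. The number of genes at 1 FPKM or more was 20472, 20198 and 20595 at 0.6 mm, against 20384, 20380 and 21213 at 0.4 mm, or 20422 ± 203 and 20659 ± 480 (SD, n = 3 each, exact two-sided permutation p = 0.7). The 1000 most abundant genes held 42.6% ± 2.23 of FPKM at 0.6 mm and 43.2% ± 0.724 at 0.4 mm (SD, n = 3 each, exact two-sided permutation p = 0.8). The smallest p that 3 against 3 libraries allow is 0.1. It was reached for genes at 5 FPKM or more, which numbered 13967, 13779 and 13967 at 0.6 mm, against 14026, 14036 and 14621 at 0.4 mm, with no overlap. Read depth is unknown, since only FPKM are used here and their low values gave no step that could be turned into reads, so no counting interval is given.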

How the data were processed

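Per the labels' protocols, total RNA of 20 to 30 anthers was enriched for poly(A) RNA and made into directional libraries. The submitters' processing notes name HISAT2 2.1.1 and StringTie 2.1.4 among their tools. A genome build was not given in the sources used here. The authors deposited FPKM per transcript entry (48494 entries, named by gene ID), which were summed to 35594 gene IDs. Those reaching 1 FPKM in 3 or more of the 30 libraries were tested (26091). log2(FPKM + 1) was fitted in limma 3.58.1 under R 4.3.3 (lmFit, eBayes with trend) with the 10 lengths as 1 factor, and the fit was tested on simulated data. Groups and replicate numbers come from the titles. Separate plants per replicate are not stated, so p-values measure the spread between these samples. Single values were compared by exact permutation tests (SciPy 1.17.1).

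IDs given are the 2 largest rises and falls among called genes with at least 10 FPKM in the higher length and no overlap, and by the same rule the 2 largest peaks and dips. The comparison, lists and rules were chosen with earlier results of these data known. The fit on the compared sizes together with a filter on those sizes was added after seeing the data.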

Additional observations from a re-analysis of the deposited data

Results flagged for a closer look

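For 811 genes the change between 0.6 and 0.8 mm differed from that between 0.4 and 0.6 mm, by a test of the difference itself (limma, Benjamini-Hochberg adjusted p under 0.05 and at least 1 on the log2 scale). By the rule for IDs, 4 of them are given. The difference was -11.23 for OsKitaake02g083000.v3.1 and -11.22 for OsKitaake12g205600.v3.1, which were high at 0.6 mm, and 3.40 for OsKitaake01g100900.v3.1 and 3.25 for OsKitaake07g035200.v3.1, which were low at 0.6 mm.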

How the results depend on the processing

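The 1265 genes called at 0.6 against 0.4 mm were 376 in the fit on the compared sizes alone and 750 with a filter on those sizes, and 832 (without 0.4 mm replicate 2) to 1435 with 1 library left out. The 811 genes with a called bend were 186 and 320 in these fits, and 502 (without 0.6 mm replicate 1) to 942 with 1 library left out. The 539 genes called at 1.0 against 0.8 mm were 100 and 293, and 284 to 976 with 1 library left out, past 1.5 times for each of these libraries but 1.0 mm replicate 3. All other alternatives moved these counts by less than 1.5 times, but the genes called could change more than their number. With a pseudocount of 0.1, 1156, 706 and 569 genes were called. They included 971 of the 1265, 555 of the 811 and 433 of the 539. The difference of 0.6 minus 0.4 mm in genes at 1 FPKM or more was -237 and ranged from -377 to 39.7 with 1 library left out, turning sign without 0.4 mm replicate 3. That in the share of the 1000 most abundant genes was -0.625 percentage points, 0.154 for 5000 genes, and -1.72 to 0.515 with 1 library left out, turning sign without 0.6 mm replicate 1. The cause of these changes was not tested beyond the smaller number of libraries. With the replicate number as a block, 1258, 803 and 538 genes were called. Deviations of same-numbered libraries of 0.6 and 0.4 mm correlated at 0.129, 1.29e-05 and 0.175. For differently numbered libraries the range was -0.237 to 0.123. The numbers were not taken to pair the libraries, and these correlations do not settle whether they do. The unknown depth limits what can be said of genes near 0 FPKM.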
